A study of Mus musculus with 6 samples.

Results

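The Ms4a genes encode small membrane proteins that cross the membrane several times and stand side by side in 1 gene cluster. All 9 genes chosen here (Ms4a1, Ms4a4b, Ms4a4c, Ms4a4d, Ms4a6b, Ms4a6c, Ms4a6d, Ms4a7 and Ms4a8a) were measured, out of 18193 genes with a probe set of their own on the array. They were chosen by name, as every probe set annotated with 1 of these symbols alone, which gave 17 probe sets. Each array held RNA of resident peritoneal macrophages, sorted as CD11b-high cells with low or no MHC class II and pooled from 2 to 3 mice aged 7 weeks. There were 3 arrays from mice with a conditional, floxed deletion of Gata6 (Gata6-KO) and 3 from wild type mice (Gata6-WT), described as sex-matched. The sources used here give neither the Cre line, nor the deleted part of the gene, nor the sex of a pool.

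MS4A proteins act mostly as partners of other receptors at the cell surface. MS4A1 is CD20, the B cell protein targeted by therapeutic antibodies, MS4A2 is the beta chain of the high-affinity IgE receptor of mast cells, and MS4A3 marks precursors of granulocytes and monocytes. MS4A4B is known from T cells, MS4A7 and the MS4A6 proteins from macrophages and microglia, and MS4A8A from alternatively activated macrophages. GATA6, the factor deleted here, is the transcription factor that maintains the resident macrophage programme of the peritoneal cavity.

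The Ms4a6 and Ms4a4 genes lie close together in the cluster and include close copies, which the sequences before their start sites show. RefSeq start site windows (250 bases before to 50 after the start, GRCm38.p6) were found for 7 of the 9 genes, in 8 windows, as Ms4a7 has 2. Among the 28 pairs of windows, the best local alignments were those of Ms4a4b with Ms4a4c, at 89.3% identity over 178 columns, and of Ms4a6b with Ms4a6c, at 82.5% over 234 columns. The next pair aligned over 26 columns. The 4 windows are printed because they show which genes are close copies, and capitals mark the stretch that aligned within each pair. All 4 are on the plus strand, with Ms4a6b at chr19:11518309-11518608, Ms4a6c at chr19:11469118-11469417, Ms4a4b at chr19:11443308-11443607 and Ms4a4c at chr19:11407411-11407710.
Ms4a6b: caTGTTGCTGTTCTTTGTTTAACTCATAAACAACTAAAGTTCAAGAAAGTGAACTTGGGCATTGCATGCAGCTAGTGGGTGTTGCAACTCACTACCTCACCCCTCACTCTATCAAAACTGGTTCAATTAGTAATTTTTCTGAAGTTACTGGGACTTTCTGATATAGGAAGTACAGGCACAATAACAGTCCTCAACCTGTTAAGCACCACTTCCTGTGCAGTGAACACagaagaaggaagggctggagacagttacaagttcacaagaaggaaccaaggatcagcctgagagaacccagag
Ms4a6c: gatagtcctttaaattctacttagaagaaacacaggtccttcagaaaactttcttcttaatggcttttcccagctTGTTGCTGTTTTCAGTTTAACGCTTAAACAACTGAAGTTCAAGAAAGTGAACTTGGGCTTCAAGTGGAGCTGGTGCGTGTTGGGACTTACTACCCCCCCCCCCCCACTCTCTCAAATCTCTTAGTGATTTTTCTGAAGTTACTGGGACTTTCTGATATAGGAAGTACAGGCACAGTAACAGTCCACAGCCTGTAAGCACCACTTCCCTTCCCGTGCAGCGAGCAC
Ms4a4b: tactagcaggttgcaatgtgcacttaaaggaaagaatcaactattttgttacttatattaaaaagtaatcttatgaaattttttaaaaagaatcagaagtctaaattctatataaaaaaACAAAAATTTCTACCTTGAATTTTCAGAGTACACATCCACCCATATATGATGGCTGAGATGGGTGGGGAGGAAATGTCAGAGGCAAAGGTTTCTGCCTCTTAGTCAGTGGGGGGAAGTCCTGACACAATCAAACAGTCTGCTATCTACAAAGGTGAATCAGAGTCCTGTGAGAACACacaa
Ms4a4c: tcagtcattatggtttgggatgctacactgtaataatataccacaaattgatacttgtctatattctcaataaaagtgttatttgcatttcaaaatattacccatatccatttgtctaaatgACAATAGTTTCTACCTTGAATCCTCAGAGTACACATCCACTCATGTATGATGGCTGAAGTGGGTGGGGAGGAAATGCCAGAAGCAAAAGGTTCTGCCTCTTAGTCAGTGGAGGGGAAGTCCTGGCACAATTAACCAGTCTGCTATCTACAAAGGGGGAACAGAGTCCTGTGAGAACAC

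Ms4a6b was the Ms4a gene that rose in Gata6-KO macrophages, by 5.63-fold at its brighter probe set, and no tested Ms4a gene of the set passed as lower. The Ms4a6c and Ms4a6d probe sets with the higher signals also lay above wild type on every Gata6-KO array, by 1.67- to 2.04-fold, but did not pass the test. Ms4a8a had a high signal in both genotypes with overlapping arrays, and the 5 other genes had low signals throughout. Differences were tested with limma on log2(signal + 16), with p-values adjusted over the 27022 probe sets that passed a filter on low signal (a mean log2 value above 5.99, a signal of 47.5). Of the 17 Ms4a probe sets 10 passed this filter, from 7 genes. Ms4a4c and Ms4a4d had no probe set above it.

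At an adjusted p under 0.05, 2 of the 10 tested Ms4a probe sets were higher in Gata6-KO and 0 were lower, where 5.12% of all tested probe sets were higher and 5.67% lower. Both are Ms4a6b probe sets, and 1 of them, 1439956_at, passed the filter only through its Gata6-KO arrays, so it had to differ. The other counts are therefore given over the 9 probe sets besides it, of which 1 was higher and 0 were lower. At an unadjusted p under 0.05 in the same limma fit 4 of the 9 were higher and 0 were lower, where 11.9% of all tested probe sets were higher and 13.1% lower. Every Gata6-KO array lay above every Gata6-WT array on 4 of the 9, which was so for 14.8% of all tested probe sets. The median log2 difference was 0.74 over the 9 and -0.01 over all tested probe sets. By gene, 1 of 7 was higher and 0 were lower, where 5.61% and 7.46% of 12511 genes were. The 9 include 2 probe sets each of Ms4a6c and Ms4a6d, which share a target, so they are not independent.

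**Figure D1:**
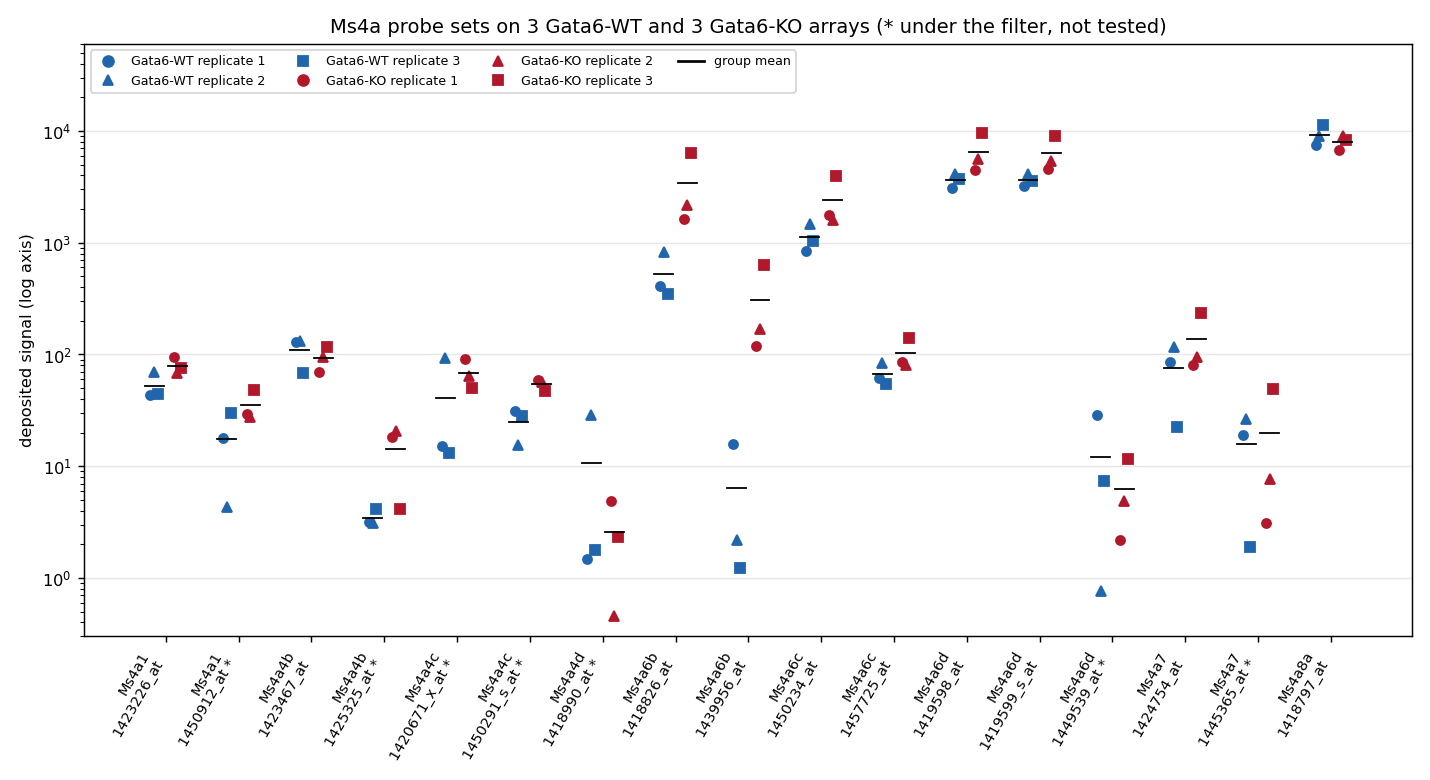
Deposited signal (log axis) of all 17 Ms4a probe sets on the 3 Gata6-WT (blue) and 3 Gata6-KO (red) arrays, with symbols for the replicate number, black lines for group means and an asterisk for the 7 probe sets under the filter. The red points of Ms4a6b lie above its blue points at both probe sets, with Gata6-KO replicate 3 highest, while Ms4a8a overlaps.

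At the Ms4a6b probe set with the higher signal (1418826_at), Gata6-KO replicates 1, 2 and 3 had signals of 1640, 2196 and 6394, and Gata6-WT replicates had 410, 831 and 348. The groups did not overlap, and Gata6-KO replicate 3 stood above the other Gata6-KO arrays. Mean signals were 3410 ± 2599 in Gata6-KO and 529.9 ± 263 in Gata6-WT (SD, n = 3), a 5.63-fold rise on the log2(signal + 16) scale (log2 2.49 ± 0.47 SE, limma adjusted p = 0.0090). As these are bulk samples, more cells with the transcript and more of it per cell cannot be told apart.

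The second Ms4a6b probe set (1439956_at) gave signals of 119, 168 and 625 in Gata6-KO and 15.9, 2.18 and 1.23 in Gata6-WT. Its array order within Gata6-KO was the same as at the first probe set, with replicate 3 highest and replicate 1 lowest. The fitted log2 difference was 3.55 (limma adjusted p = 0.0042). Its wild type signals are under the filter, so its size depends on the added constant (2.14 with 64 in place of 16), and it is given as a description rather than as a second support. Without Gata6-KO replicate 3, the array of the highest signal, the rise at 1418826_at was 1.91 (limma adjusted p = 0.012).

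Ms4a6c, whose start site window aligned with that of Ms4a6b, had signals of 1765, 1607 and 3931 in Gata6-KO and 849, 1480 and 1025 in Gata6-WT at its brighter probe set (1450234_at). The groups did not overlap, but the lowest Gata6-KO array and the highest Gata6-WT array were close, and replicate 3 was again the highest. The log2 difference was 1.03 ± 0.32, with a 95% interval of 0.31 to 1.75, and did not pass (limma adjusted p = 0.076). It was 0.62 without Gata6-KO replicate 3. The other Ms4a6c probe set (1457725_at), with signals of 80.9 to 139.9 in Gata6-KO and 54.3 to 84.1 in Gata6-WT, had overlapping groups and a log2 difference of 0.50 ± 0.31, or 0.28 without Gata6-KO replicate 3.

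Ms4a6d encodes a macrophage protein reported to partner the complement receptor VSIG4. Its probe set 1419598_at had signals of 4449, 5572 and 9597 in Gata6-KO and 3060, 4103 and 3719 in Gata6-WT. The groups did not overlap, and Gata6-KO replicate 3 was again well above the other arrays. The log2 difference was 0.78 ± 0.25 (95% interval 0.23 to 1.33, limma adjusted p = 0.078). A second probe set of Ms4a6d, 1419599_s_at, gave 0.74 ± 0.22 (limma adjusted p = 0.067), while the third, 1449539_at, had signals of 0.76 to 28.5 and was not tested. Both tested Ms4a6d probe sets passed when a term for sex-linked expression was added to the fit (limma adjusted p = 0.036 and 0.041) and when Gata6-KO replicate 1 was left out (limma adjusted p = 0.030 and 0.032). Without Gata6-KO replicate 3 their log2 differences were 0.47 and 0.45 (limma adjusted p = 0.14 and 0.11).

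**Figure D2:**
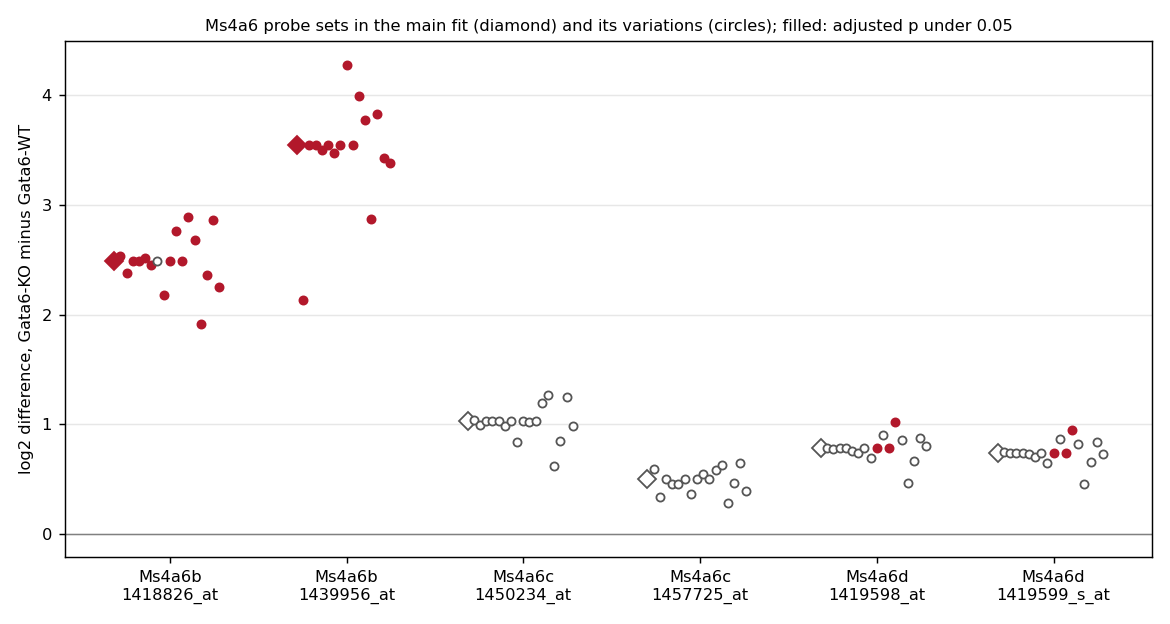
Log2 difference (Gata6-KO minus Gata6-WT) of the 6 tested Ms4a6 probe sets in the reported fit (diamonds) and in its variations (circles), filled where the limma adjusted p was under 0.05. All points lie above 0, those of Ms4a6b between 1.91 and 4.28, and filled points outside Ms4a6b occur at both Ms4a6d probe sets, in 3 variations each.

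Ms4a8a was present at a high signal in both genotypes. Gata6-KO arrays had 6743, 8961 and 8345 and Gata6-WT arrays 7425, 9016 and 11283. The groups overlapped, with the lowest array in Gata6-KO and the highest in Gata6-WT. The log2 difference was -0.19 ± 0.17 (limma adjusted p = 0.52), with a 95% interval of -0.56 to 0.18, so a change of the size seen for Ms4a6b lies outside the interval.

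Ms4a7, a gene of tissue macrophages, had low signals here. At 1424754_at Gata6-KO arrays had 80.3, 95.8 and 235.8 and Gata6-WT arrays 85.3, 117 and 22.4. The groups overlapped, with Gata6-KO replicate 3 high and Gata6-WT replicate 3 low. The log2 difference was 0.80 ± 0.51 (limma adjusted p = 0.38), and it was 0.37 and 0.26 with those arrays left out in turn. The second Ms4a7 probe set, 1445365_at, had signals of 1.87 to 48.6 and was not tested. Over the 10 tested Ms4a probe sets, Gata6-KO replicate 3 had the highest of the 6 signals in 7. These 7 include both tested probe sets of Ms4a6b, of Ms4a6c and of Ms4a6d, so they are not independent. The share over all tested probe sets was not computed, so the count is a description only.

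The lymphocyte genes of the family stayed low. Ms4a1 had signals of 94.7, 67.9 and 75.9 in Gata6-KO and 43.3, 69.1 and 44.6 in Gata6-WT at its tested probe set, 1423226_at. The groups overlapped by 1 wild type array, and the log2 difference was 0.49 ± 0.32 (limma adjusted p = 0.38). The second Ms4a1 probe set, 1450912_at, had 4.33 to 48.1 and was not tested. For Ms4a4b the tested probe set, 1423467_at, gave 69.5, 94.2 and 116 in Gata6-KO and 129, 133 and 67.8 in Gata6-WT. These groups overlapped over most of their range (log2 -0.18 ± 0.32, limma adjusted p = 0.78).

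Markers of B and T cells were measured on the same arrays, and the part of these cells in the Ms4a1 and Ms4a4b signals was not tested. Of the 9 measured B cell markers 5 were tested, and 0 passed in either direction in limma, also at an unadjusted p under 0.05. Their summed signal was 541 to 794 in Gata6-KO and 522 to 796 in Gata6-WT, and Cd79a, a chain of the B cell receptor, had 3.45 to 47.6 and 22.7 to 73.4. Of 8 measured T cell markers 1 was tested and did not pass, with a summed signal of 237 to 388 in Gata6-KO and 296 to 443 in Gata6-WT. Cd3e, a chain of the T cell receptor complex, had 27.7 to 39.4 in Gata6-KO and 31.2 to 74.8 in Gata6-WT. No marker was listed at 0, as 0 of the deposited values are.

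Ms4a4c and Ms4a4d were under the filter. The Ms4a4c probe set 1450291_s_at had 59.1, 56.2 and 47.4 in Gata6-KO and 31.1, 15.6 and 27.9 in Gata6-WT. These groups did not overlap, but in a fit of all probe sets without the filter the limma adjusted p was 0.31. Its other probe set, 1420671_x_at, had 50.6 to 90.6 in Gata6-KO and 13.0 to 93.6 in Gata6-WT, with overlap. Ms4a4d, at 1418990_at, had 0.46 to 4.92 in Gata6-KO and 1.49 to 28.7 in Gata6-WT. By the array maker's naming, a probe set ending in _s_at or _x_at can read more than 1 transcript, so the Ms4a4c signals and 1 of the Ms4a6d signals may include a close copy. Probe sequences were not used here, and whether other probe sets also read a close copy was not tested.

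**Figure D3:**
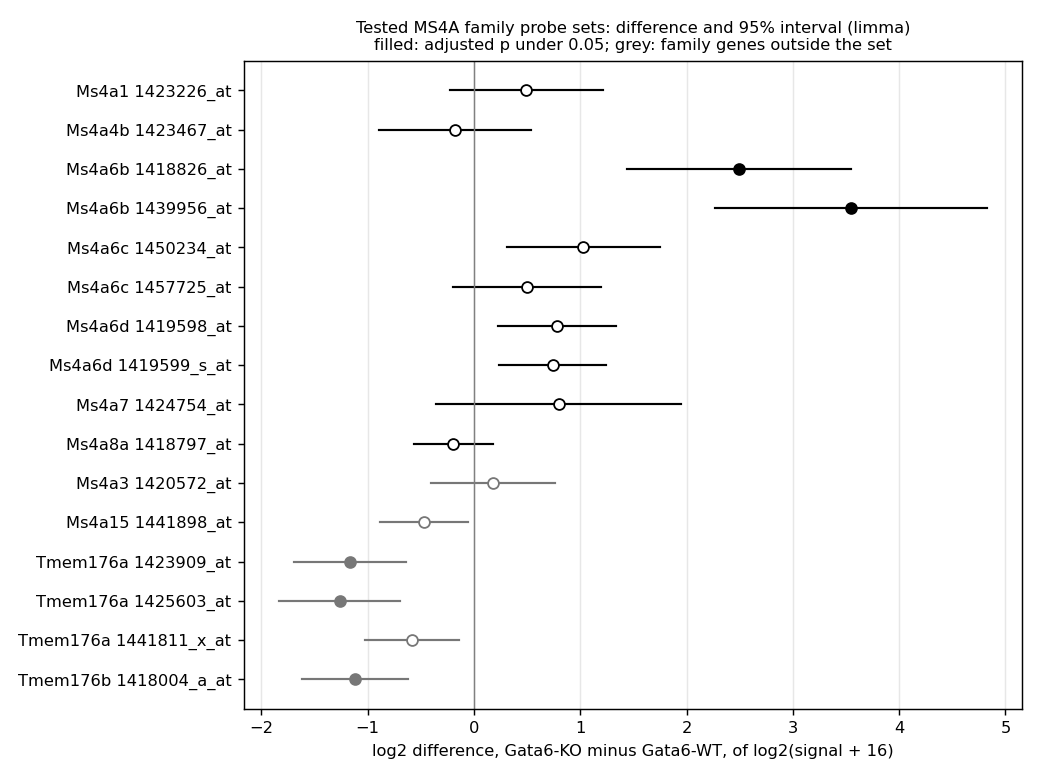
Log2 difference (Gata6-KO minus Gata6-WT, of log2(signal + 16)) with its 95% interval for the tested probe sets of the 9 Ms4a genes (black) and of related family genes (grey), filled where the limma adjusted p was under 0.05. The intervals of both Ms4a6b probe sets lie above 0, and those of 2 Tmem176a probe sets and of Tmem176b lie below it with filled points. Intervals are not adjusted for the number of tests, so some with open points also exclude 0. These are Ms4a6c 1450234_at and both Ms4a6d probe sets above 0, and Ms4a15 and Tmem176a 1441811_x_at below it.

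Among relatives of the family the calls were in the other direction. Tmem176a and Tmem176b, a pair of MS4A-related membrane proteins, both fell. Tmem176b had signals of 3925, 7385 and 4141 in Gata6-KO and 9142, 11614 and 11733 in Gata6-WT, without overlap (log2 -1.12 ± 0.22, limma adjusted p = 0.012). Tmem176a had 1897, 3864 and 2157 in Gata6-KO and 4900, 6075 and 6117 in Gata6-WT at its brightest probe set (log2 -1.17 ± 0.23, limma adjusted p = 0.012). Gata6-KO replicate 2 had the highest Gata6-KO signal of both genes, not replicate 3 as for Ms4a6b. A second Tmem176a probe set fell by 1.26 on the log2 scale, and another, 1441811_x_at, did not pass (log2 -0.59, limma adjusted p = 0.095). Without Gata6-KO replicate 3 the log2 difference was -1.06 for Tmem176a (limma adjusted p = 0.052) and -0.997 for Tmem176b (limma adjusted p = 0.0501).

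Of 8 measured genes in the list of related family members, 4 were tested, 0 were higher (0 also at an unadjusted p under 0.05 in limma) and 2 were lower, namely the Tmem176 pair. Over all tested genes 5.61% were higher and 7.46% lower. Ms4a15 had 319, 230 and 221 in Gata6-KO and 354, 343 and 376 in Gata6-WT, which did not overlap but did not pass (log2 -0.47 ± 0.18, limma adjusted p = 0.15). Ms4a3 had 95.4 to 119 in Gata6-KO and 76.7 to 117 in Gata6-WT (log2 0.18 ± 0.26). Ms4a2, the mast cell gene, had signals of 2.91 to 41.4 at its 2 probe sets, and Ms4a10, Ms4a13 and Ms4a18 were likewise under the filter.

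Partners of MS4A proteins were looked at next. Of 6 measured partners 4 were tested, of which 1 was higher and 0 were lower, where 5.61% and 7.46% of all tested genes were. Cd40, a receptor that associates with CD20 in B cells, had 1934, 2081 and 1763 in Gata6-KO and 898, 1565 and 824 in Gata6-WT (log2 0.86 ± 0.22, limma adjusted p = 0.034), without overlap. Its adjusted p ran from 0.0025 to 0.19 over the variations of the fit and was under 0.05 in 8 of 17. Clec7a, the beta-glucan receptor that MS4A4A accompanies, had a log2 difference of 0.02 ± 0.14 (95% interval -0.29 to 0.33) and Fcer1g, the signalling chain shared by Fc receptors, 0.20 ± 0.11 (-0.05 to 0.45). Tnfrsf18 (GITR), a partner of MS4A4B, had 69.8 to 83.7 in Gata6-KO and 19.0 to 111 in Gata6-WT, with overlap. Fcer1a and Kit were under the filter.

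In the RefSeq gene order, on chromosome 19, the 21 Ms4a genes stand in a row with 1 other gene, Gm8369, inside it. Ms4a6c, Ms4a6b and Ms4a6d lie close together there, with Ms4a4d between Ms4a6b and Ms4a6d. Of the 17 Ms4a genes on the array 9 were tested, and Ms4a6b was the 1 that passed. Gm8369 stands between Ms4a6c and Ms4a6b, and Ms4a4b, on the other side of Ms4a6c, had the log2 difference of -0.18 given above. Among Gm8369 and the 5 genes on each side of the cluster, 5 of 11 were tested and 0 passed, with log2 differences from -0.17 for Prpf19 to 0.22 for Mrpl16. In the same limma fit 0 of the 5 had an unadjusted p under 0.05.

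**Figure D4:**
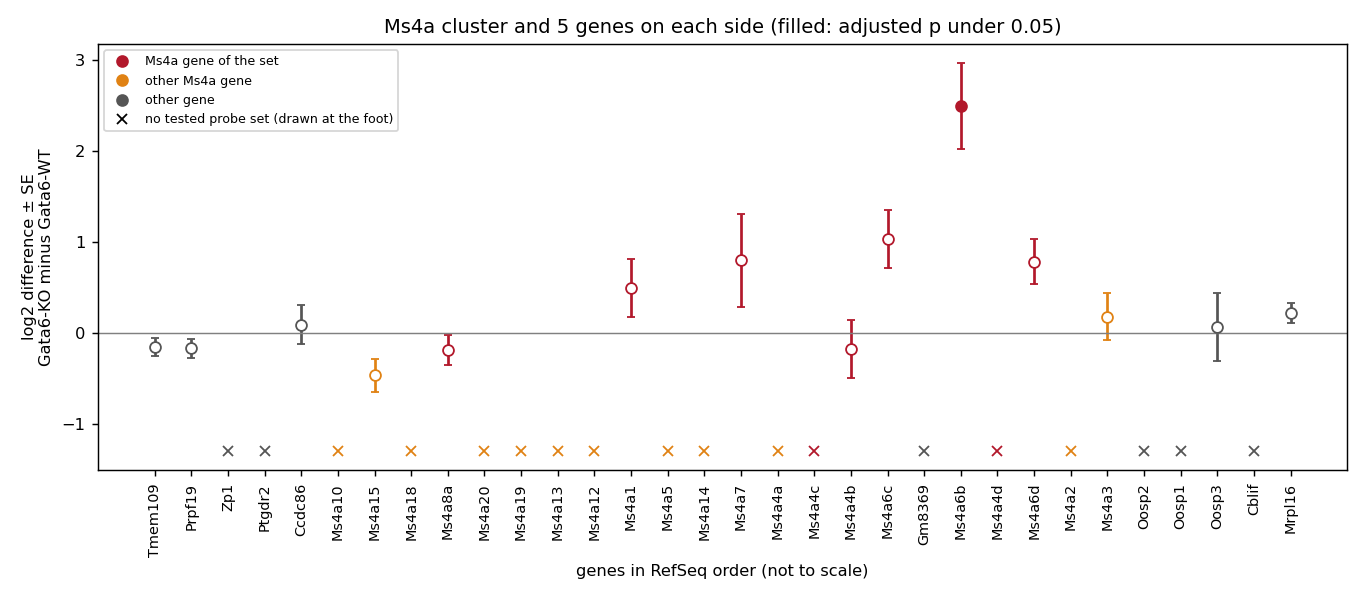
Log2 difference ± SE (Gata6-KO minus Gata6-WT) of the genes of the Ms4a cluster and 5 genes on each side, in RefSeq order and not to scale, filled where the limma adjusted p was under 0.05 and with crosses for genes without a tested probe set. Ms4a6b has the filled point, at 2.49, with Ms4a6c at 1.03 and Ms4a6d at 0.78 close by but not adjacent to it. The other tested Ms4a genes run from -0.47 for Ms4a15 to 0.80 for Ms4a7, and the flanking genes are near 0.

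Motifs were looked up in the start site windows on both strands, as letters and not as sites of binding. The GATA core (AGATAA or AGATAG or TGATAA or TGATAG) was in 4 of the 8 Ms4a windows, those of Ms4a4b, Ms4a4c and Ms4a6b and 1 of Ms4a7, and in 29.8% of all 32851 windows. An ETS core (GAGGAA) was in 3 of 8 and in 28.3% of all windows. The GATA and ETS matches of Ms4a4b and Ms4a4c lie in the stretch where these close copies align, so they are not independent. A core of the MAF recognition element (TGCTGA) was in 1 of 8, that of Ms4a8a, and in 19.5% of all. An interferon regulatory factor pattern (GAAANNGAA), added after the sequences had been seen, was in 4 of 8 windows, in Ms4a6b, Ms4a6c and both of Ms4a7, and in 8.56% of all. In Ms4a6b and Ms4a6c it lies in the aligned stretch with the same letters, GAAAGTGAA. These lie at -206 in Ms4a6b and at -133 in Ms4a6c from the start. The matches of these close copies are not independent, and the windows of Ms4a7 belong to the same gene. Because the pattern was chosen with these windows in view, its share of all windows cannot serve as a test, and the count is a description only. No motif searched contains another, though neighbouring matches can share end bases.

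Interferon response genes were set beside the Ms4a6 genes. Of 7 tested genes of the type I interferon list 2 were higher in Gata6-KO and 0 were lower. Over all tested genes 5.61% were higher and 7.46% lower. The median log2 difference of the 7 was 0.38. Rsad2, which encodes the antiviral enzyme viperin, had 267, 606 and 528 in Gata6-KO and 93.5, 175 and 147 in Gata6-WT at its brightest probe set. Oas1a, an antiviral RNA sensor, had 6035, 7715 and 6751 in Gata6-KO and 3392, 5237 and 4450 in Gata6-WT. The groups did not overlap for either gene, with Gata6-KO above, as for 14.8% of all tested probe sets. The summed signal of the 8 measured list members was 7839 to 10500.4 in Gata6-KO and 4612 to 7415 in Gata6-WT, but Oas1a held most of this sum on every array. Ifit1, Ifit3, Irf7 and Usp18 had log2 differences of 0.29 to 0.42 and Mx1 -0.16, and none of these passed. Ifit2 was under the filter, at a log2 difference of -0.70 in the fit without it. The part of the interferon response in the Ms4a6b result was not tested.

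The genes whose log2 signals followed Ms4a6b most closely over the 6 arrays were Stx12 (r = 0.999), Atp2a2 (0.998), Ddx21 (0.998), Lyrm1 (0.995) and Thoc1 (0.988). These values are descriptive: all points share the 2 genotypes, and 351 of 12510 genes had r above 0.9. Stx12, a syntaxin of endosomes, had 2538, 2724 and 3347 in Gata6-KO and 1920, 2211 and 1899 in Gata6-WT. The calcium pump gene Atp2a2 and the RNA helicase gene Ddx21 passed the test together with Stx12, with log2 differences of 0.66, 0.52 and 0.50, and Lyrm1 and Thoc1 did not. Among the Ms4a genes, Ms4a6c had r = 0.952 and Ms4a6d r = 0.946 with Ms4a6b. Ms4a7 had 0.796, Ms4a1 0.744, Ms4a4b 0.114 and Ms4a8a -0.30.

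Median signals of the 6 arrays were 79.5 to 88.3. The arrays carried sex-linked expression by replicate number. Xist was low on both arrays numbered 1 and high on the others, so replicates 1 gave male-type and replicates 2 and 3 female-type values in both genotypes. For Ms4a6b the log2 difference was 2.76 in the female-type arrays and 1.96 in the male-type pair at 1418826_at. Ms4a6c had 1.02 and 1.04 and Ms4a6d 0.90 and 0.54 at their brightest probe sets. Ms4a8a had -0.22 and -0.14. Ms4a7 (1.23 and -0.07) and Ms4a4b (0.11 and -0.76) had opposite signs in the types. With 1 male-type array per genotype, the limma interaction had an adjusted p of 1.00 for each tested Ms4a probe set, which shows neither a difference nor its absence.

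As checks of the samples, 2 of 3 Gata6 probe sets were lower in Gata6-KO (log2 -0.88 and -1.15) and the third was at -0.01. Of 7 macrophage markers 4 were lower (Adgre1, Fcgr1, Icam2 and Timd4) and 1 was higher (Mertk). The shares over all tested genes were 7.46% lower and 5.61% higher. At their brightest probe sets Adgre1, Csf1r, Itgam, Timd4 and Icam2 had signals of 7567 or more on all 6 arrays and Mertk 4419.8 to 6654, while Fcgr1 had 96.2 to 199.9 in Gata6-KO and 842 to 1383 in Gata6-WT. Some markers of other cells differed by genotype. The summed monocyte markers were 2956 to 10308 in Gata6-KO and 1008 to 1184 in Gata6-WT, and Ccr2 was the 1 of 3 tested that passed, highest in Gata6-KO replicate 1. Ccr2 alone had 1740 to 9632 in Gata6-KO and 105 to 186 in Gata6-WT, so the gap between the sums came mostly from this gene. Spn (log2 0.56) and Nr4a1 (log2 -0.45) did not pass, and Cx3cr1 and Treml4 were under the filter. Neutrophil markers summed to 2607 to 3676 against 5637 to 8432, with Csf3r and S100a8 lower and Elane not passed. Most of the gap between these sums came from Csf3r (means of 2553.5 in Gata6-KO and 5368 in Gata6-WT). Cxcr2, Mpo and S100a9, under the filter, had higher means in Gata6-KO (41.9, 53.7 and 17.9 against 18.3, 32.0 and 4.11). Dendritic cell markers summed to 524 to 781 against 1021 to 1639.8, with Cd209a lower (92.1 to 158 against 281 to 1109). Most of the gap between the dendritic cell sums came from Cd209a. Batf3 (log2 -0.64), Itgax (0.13) and Zbtb46 (0.24) did not pass, and Flt3 and Xcr1, under the filter, had higher means in Gata6-KO. Mast cell markers summed to 326 to 494 against 509.6 to 609.7, where 0 of 2 tested passed in limma. These 2, Cma1 and Cpa3, were lower at an unadjusted p under 0.05, as were 13.1% of all tested probe sets. Under the filter, Tpsb2 (71.7 against 19.2), Kit (50.7 against 44.1) and Mcpt4 (21.2 against 18.8) had higher means in Gata6-KO at their brightest probe sets. Fcer1a had a lower one (6.23 against 14.8). NK cell markers (240 to 351 against 179 to 338) and eosinophil markers (125 to 201 against 85.3 to 196) overlapped. Of the 2 tested NK cell markers 0 passed. Prf1 was higher at an unadjusted p under 0.05 in limma, as were 11.9% of all tested probe sets, and Gzma was not. Under the filter, Eomes, Klrk1 and Nkg7 had lower means in Gata6-KO at their brightest probe sets and Ncr1 a higher one. The part of these cells in the Ms4a6b result was not tested.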

How the data were processed

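RNA was measured on 6 arrays, 1 for each pool of mice that the labels call a biological replicate. The authors deposited linear signal intensities of 45101 probe sets. MAS5 and affy are the tools listed in the submitters' processing notes, without versions. Low MAS5 signals are imprecise, and detection calls were not used. In the array annotation 34945 probe sets had 1 symbol, 932 several and 9160 none. All 17 Ms4a probe sets matched a RefSeq gene identifier (GRCm38.p6), with 0 symbols updated.

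After removal of 64 control probe sets, log2(signal + 16) was tested without further normalization where its mean was above the 40th percentile. The tests were two-sided, by limma 3.58.1 in R 4.3.3, using lmFit and eBayes with a trend in the variance. Adjustment was by Benjamini-Hochberg over 27022 probe sets, with a threshold of 0.05, and intervals are 95% without adjustment. Listed genes were represented by their tested probe set with the highest mean. The number of arrays limits precision, and an exact permutation test of 3 against 3 arrays cannot go below p = 0.1. On simulated arrays of 27022 probe sets this comparison recovered 2%, 38%, 68% and 68% of changes of log2 0.5, 1, 2 and 3. Only 50 probe sets of each size were changed there, and 88 were called, against 2916 in the data. With fewer calls the adjusted threshold is stricter, so these shares do not measure the recovery in the reported fit.

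The genes and lists were chosen with earlier results of these data known. Named were every probe set of the 9 Ms4a genes, every measured relative and partner, list members past the threshold or with high signal, Gata6 and Xist, the 5 genes most like Ms4a6b, and genes beside the cluster. Cd79a and Cd3e were named in addition as defining markers. Windows were aligned with Biopython 1.88 and figures drawn with matplotlib 3.10.9. Alternatives varied the added constant, filter, scaling, variance trend, array weights, replicate block, sex-linked term, threshold and arrays.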

Additional observations from a re-analysis of the deposited data

How the results depend on the processing

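Ms4a6b kept a positive difference under every variation run, but the number of Ms4a probe sets past the threshold did not stay at 2. It was 1 with a pseudocount of 1 and 1 with a filter at the 60th percentile, where 1439956_at fell under the filter, and 1 without the mean-variance trend, where 1418826_at had a limma adjusted p of 0.055 (the cause was not tested). It was 4 with a sex-linked term and 4 with the replicate number as a block, where both Ms4a6d probe sets also passed, and 2 to 4 with 1 array left out. The count over all probe sets was 2916, and 1459 without the trend, 1654 in replicates 2 and 3 alone, 1251 at an adjusted p under 0.01, 1256 with a change of at least 2-fold, and 1856 to 2476 with 1 array left out (1886 and 1856 when this was Gata6-KO replicate 2 or 3, and 1893 for Gata6-WT replicate 2); the replicate block gave 3076. Deviations of same-numbered arrays from their genotype means correlated at 0.128, 0.074 and 0.074, and each array correlated best with its own number, which is a hint from the data and not the design. Of 215 single differences recomputed for the Ms4a, Tmem176 and Cd40 probe sets, 194 kept direction and side of the threshold, 14 lost the call (9 for Cd40), 6 gained it (all Ms4a6d), and 1 changed sign without a call (Ms4a4b in replicates 2 and 3 alone, 0.11). None of the called differences changed sign. Low signals limit what can be said of Ms4a1, Ms4a4b, Ms4a4c, Ms4a4d and Ms4a7.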

Other observations

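Both Ms4a19 and Ms4a20, added to the family after the annotation had been read, were under the filter on low signal. Ms4a19 had signals of 0.74 to 9.85 in Gata6-KO and 0.57 to 2.09 in Gata6-WT, and Ms4a20 had 2.83 to 33.5 and 10.6 to 37.4. The second Ms4a4b probe set (1425325_at) had 18.3, 20.5 and 4.10 in Gata6-KO and 3.15, 3.12 and 4.16 in Gata6-WT, so the highest Gata6-WT signal lay just above the lowest Gata6-KO signal.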
